A study of Macaca mulatta with 27 samples.

Results

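The HOX cluster genes were followed in rhesus monkey pluripotent stem cells (PSCs) before and after reprogramming. All gene symbols of the form HOX, a cluster letter from A to D and a paralog number were taken, which gave 38 of the 17967 symbols in the count tables. Cluster A held 11 of them, cluster B 10, cluster C 9 and cluster D 8. The choice used names only and no measured value. HOXD4 was not analysed here.

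HOX genes encode homeodomain transcription factors that give cells of the embryo their position along the head-to-tail axis. Within a cluster the genes are laid out in the order in which they come on, so that low paralog numbers are expressed early and up to the hindbrain, and high paralog numbers later and toward the trunk, limbs and tail. Retinoic acid, WNT and FGF signals and CDX factors induce them, Polycomb complexes keep them silent, and MEIS and other TALE proteins bind DNA with them. In PSCs the clusters are known to be held silent or nearly so.

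The libraries came from LyonES-tGFP-(S3), a single clonal embryo-derived line that carries a tauGFP transgene under the CAG promoter and a STAT3-ER T2 transgene, so that primed and reprogrammed cells shared both. The primed group had 6 libraries. Each of the 7 protocols had 3, namely TL2i, TL-CDK8i, LCDM (EPS), E-NHSM and NHSM-v, 4i/L/b and t2iLGöY. TL2i cells received tamoxifen, which activates STAT3-ER T2, with LIF and inhibitors of MEK and GSK3β, and in TL-CDK8i an inhibitor of CDK8 and CDK19 took the place of those inhibitors. The other protocols were applied without tamoxifen. Primed cells were passaged as clumps by hand and reprogrammed cells as single cells, so that protocol and passaging cannot be told apart in the comparisons with primed cells. No source states that the libraries of a group came from separate reprogramming experiments, so p-values measure the spread between these libraries, which may be technical.

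Total counts ranged from 7111886 to 20760914 per library (median 12201171), and 3 counts, the floor used below, were worth 0.145 to 0.422 CPM (counts per 1000000 counts of the library). The cells were also checked against markers. The summed level of 8 pluripotent cell markers was 5618 to 6241 CPM in primed and 6940.3 to 7004 CPM in E-NHSM libraries, but 1573 to 2185 in TL-CDK8i, 478 to 502 in LCDM (EPS), 543 to 638 in TL2i, 214 to 222 in t2iLGöY, 176 to 183 in 4i/L/b and 123 to 138 in NHSM-v. NANOG was at or under the floor in NHSM-v, 4i/L/b, t2iLGöY and LCDM (EPS), which goes against the labelled embryonic stem cell identity. POU5F1 had a mean of 1146 ± 79.6 CPM (SD, n = 6) in primed cells and from 0.271 ± 0.120 in NHSM-v to 6.78 ± 1.34 in TL2i (SD, n = 3) over the 5 protocols other than E-NHSM and TL-CDK8i.

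Counts on the HOX genes were low, with 3 to 25 of the 38 members over the floor in a library. Primed libraries had 13 to 22 members over the floor, E-NHSM 3 to 8, LCDM (EPS) 14 to 20, 4i/L/b 19 to 22, TL2i 19 to 23, t2iLGöY 19 to 24, TL-CDK8i 22 to 25 and NHSM-v 24 to 25. E-NHSM had the fewest members over the floor although its libraries were among the deepest, with at least 17555947 counts. Low counts were uneven between replicates, and HOXB5 for example had 25, 0 and 8 counts in the t2iLGöY libraries. The number of genes with 4 to 10 counts was 2.62 to 4.27 times the number with 1 to 3 in E-NHSM libraries. This ratio was 2.55 to 3.64 in t2iLGöY, 2.24 to 3.38 in LCDM (EPS) and 1.36 to 3.75 in primed libraries. It was 1.56 to 1.72 in NHSM-v, 1.17 to 1.41 in TL2i, 1.06 to 1.10 in TL-CDK8i and 0.957 to 1.10 in 4i/L/b. The part of these differences in the number of members over the floor, and in counts of 0, was not tested. HOXB13 and HOXC12 had 0 counts in all 27 libraries, and HOXA4 and HOXC13 stayed at or under the floor in all of them.

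**Figure D1:**
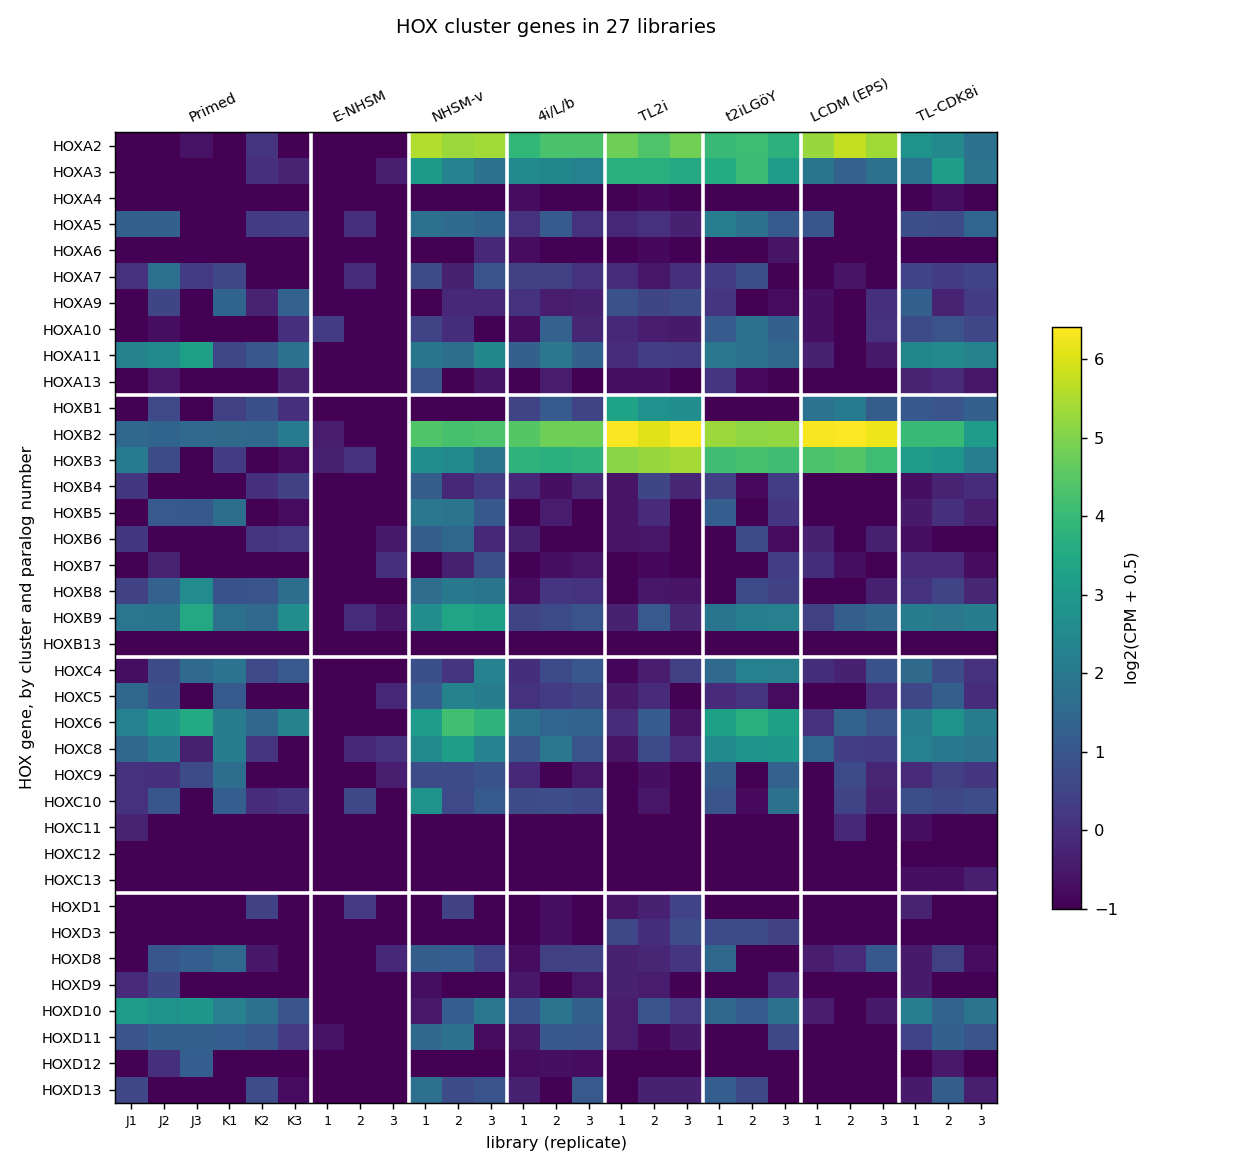
Level of HOX genes (rows, by cluster and paralog number) in each of the 27 libraries (columns, by group), as log2(CPM + 0.5). The brightest cells are in the rows of HOXB2, HOXA2 and HOXB3, and the columns of E-NHSM are the darkest.

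In all protocols but E-NHSM, most of the reads counted on HOX genes fell on the low paralog numbers. The 11 members with paralog numbers 1 to 4 had a summed level of 8.04 ± 2.19 CPM in primed cells (SD, n = 6) and, with 3 libraries each, of 156 ± 10.7 in LCDM (EPS), 187 ± 10.4 in TL2i, 89.1 ± 6.75 in t2iLGöY, 80.4 ± 8.31 in NHSM-v, 74.8 ± 7.85 in 4i/L/b, 67.5 ± 14.9 in TL-CDK8i and 0.914 ± 0.895 in E-NHSM. Every library of the first 6 of these protocols was above every primed library, and every E-NHSM library was below. These members took 19.3% of the summed HOX level in primed cells, 96.1% in TL2i and 95.2% in LCDM (EPS). In the other protocols the share was 80.2% in 4i/L/b, 69.7% in t2iLGöY, 68.0% in TL-CDK8i, 58.1% in NHSM-v and 30.7% in E-NHSM. The sums are descriptions of reads, not corrected for gene length, and were not tested.

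The 16 members with paralog numbers 9 to 13 had 19.1 ± 7.33 CPM in primed cells. NHSM-v (22.5 ± 1.55), TL-CDK8i (18.3 ± 1.18) and t2iLGöY (15.7 ± 2.75) lay within the primed range, whereas all libraries of TL2i (4.37 ± 1.46), LCDM (EPS) (3.45 ± 1.60) and E-NHSM (0.929 ± 0.524) were below it. 4i/L/b had 10.2 ± 2.92 and overlapped the primed libraries. For the 11 members with numbers 5 to 8, primed cells had 14.5 ± 6.55 CPM, NHSM-v 35.3 ± 8.16, t2iLGöY 23.1 ± 2.76, TL-CDK8i 13.6 ± 2.60, 4i/L/b 8.20 ± 2.00, LCDM (EPS) 4.49 ± 0.865, TL2i 3.25 ± 1.74 and E-NHSM 1.13 ± 1.04. NHSM-v was the only protocol in which every library was above every primed library for this class. By cluster, HOXB had 12.8 ± 4.01 CPM in primed and 124 ± 7.83 in TL2i cells, while HOXC had 11.4 ± 5.07 in primed and 2.03 ± 1.55 in TL2i cells.

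**Figure D2:**
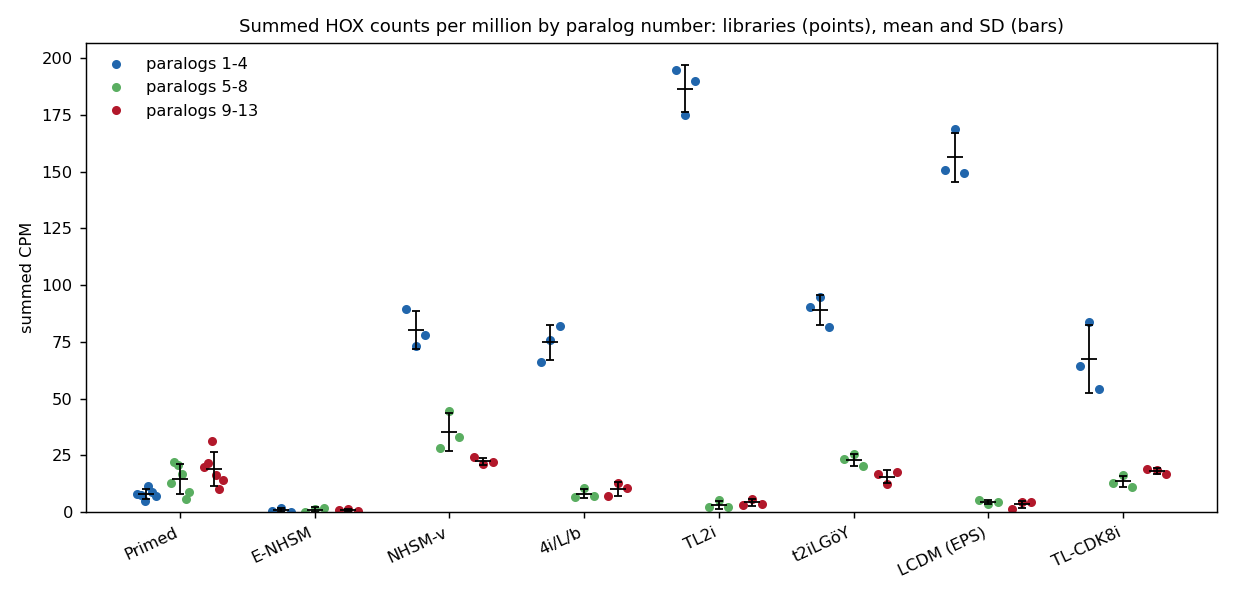
Summed CPM of HOX genes by paralog number in each library (points), with the mean and SD of each group (bars). The paralog 1 to 4 points of TL2i and LCDM (EPS) are the highest, and all classes lie near 0 in E-NHSM.

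Markers of other cell types moved as well. The summed level of 11 fibroblast and mesenchyme markers was 1113 to 2499 CPM in primed, 466 to 512 in E-NHSM, 832 to 1086 in LCDM (EPS), 3124 to 6073 in TL2i, 3751 to 4404 in t2iLGöY, 7488 to 8098 in NHSM-v, 8267 to 10562 in TL-CDK8i and 11519.7 to 14902 in 4i/L/b libraries. DCN and LUM of this list were at or under the floor in primed, E-NHSM and t2iLGöY cells. The list had median log2 fold changes from -2.54 in E-NHSM to 2.76 in 4i/L/b. For 8 neural progenitor markers the ranges were 2142 to 2522 in primed, 1257 to 1405 in E-NHSM, 1919 to 1985 in TL-CDK8i, 2206 to 2285 in NHSM-v, 2597 to 2804 in TL2i, 2632 to 2841 in 4i/L/b, 3509.8 to 3823 in t2iLGöY and 5180.4 to 5282 in LCDM (EPS). Log2 fold changes of these markers had medians of 2.72 in NHSM-v, 2.32 in TL-CDK8i and -0.37 in E-NHSM, and of 2.08 to 5.79 elsewhere. In NHSM-v 5 were called higher and 2 lower among 7 tested, and in TL-CDK8i 3 and 1 among 6. LCDM (EPS) had 8 and 0 among 8, and E-NHSM 1 and 1 among 6. The sums alone therefore do not give the direction of most markers. HES5 was over the floor only in NHSM-v, t2iLGöY and LCDM (EPS), and SOX1 was at or under it only in primed cells. Mesoderm markers summed to 17.1 to 49.2 CPM in primed, 8.01 to 17.7 in E-NHSM and 95.2 to 239 in the other protocols. Their median log2 fold change ranged from -3.26 in t2iLGöY to 1.78 in TL-CDK8i. Endoderm markers summed to 23.2 to 31.1 CPM in primed, 10.1 to 11.7 in E-NHSM, 208 to 337 in TL2i and 51.5 to 159 elsewhere. Their medians ranged from -6.21 in t2iLGöY to 3.54 in TL2i. Trophoblast and amnion markers summed to 103 to 148 CPM in primed and 87.0 to 99.5 in E-NHSM. They summed to 10.5 to 23.9 in 4i/L/b and NHSM-v and 127 to 247 elsewhere. Their medians ranged from -2.14 in LCDM (EPS) to 2.59 in TL-CDK8i, with 1.19 in 4i/L/b. The part of these cell types in the HOX results was not tested, and in bulk libraries fewer cells with a transcript and less of it per cell cannot be told apart.

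Fold changes against the 6 primed libraries were tested with edgeR (quasi-likelihood), with p-values adjusted over all genes tested and a threshold of 0.05. A member entered the test only with enough counts, so the number tested, from 16 to 25 of 38, depended on the groups. The comparisons share the primed libraries and are not independent. In TL2i, 6 members were higher, where 25.6% of all genes tested were, and 6 were lower, where 25.2% of all genes were, among 18 tested. In LCDM (EPS), 4 were higher (all genes 28.2%) and 6 lower (28.9%) among 21. In 4i/L/b, 5 were higher (26.6%) and 2 lower (29.0%) among 21. In t2iLGöY, 6 were higher (27.1%) and 1 lower (27.2%) among 25. In NHSM-v, 4 were higher (28.0%) and 0 lower (30.6%) among 21, and in TL-CDK8i 4 were higher (22.3%) and 0 lower (23.8%) among 20. E-NHSM had 0 members higher (11.1%) and 8 lower (15.1%) among 16. For these counts of 0, edgeR gave 0 members at an unadjusted p under 0.05 and DESeq2 called 0. As a share of the members tested, higher calls were above the share among all genes only in TL2i, and lower calls only in E-NHSM and TL2i. A member near the floor in 1 group entered the test through the other group, so its call could hardly go the other way. HOXD3, with 0 counts in primed libraries, could only be called higher. HOXA10, HOXB7 and HOXD1 had higher means in E-NHSM than in primed cells but were not tested there. These shares are therefore partly set by the filter.

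The direction of the calls followed the paralog number in TL2i, LCDM (EPS) and 4i/L/b. Of the members called higher, all had paralog numbers 1 to 3 except HOXC6 in NHSM-v and HOXA10 in t2iLGöY. Of those called lower, all had numbers 4 to 11 except HOXB2 in E-NHSM and HOXB1 in t2iLGöY. E-NHSM shows no such split, since all 8 of its calls were lower. There 7 of 13 members tested with numbers 4 to 13 were lower, and 1 of 3 with numbers 1 to 3. NHSM-v and TL-CDK8i had 0 lower calls. HOXA2, HOXA3 and HOXB2 were higher in all protocols but E-NHSM. HOXB3 was higher in LCDM (EPS), TL2i, 4i/L/b and t2iLGöY. The split after number 3 was chosen after the values were seen. The filter on counts also limited the direction in which a member near the floor in 1 group could be called.

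HOXB1, an early hindbrain gene that responds to retinoic acid, ranged from 0 to 1.25 CPM, with a median of 0.665, in primed libraries. In TL2i it was at 9.34, 6.24 and 5.76 CPM, above every primed library (log2 fold change 3.36 ± 0.87, adjusted p = 0.0056). LCDM (EPS) had 3.04, 3.54 and 1.77 CPM and TL-CDK8i 1.57, 1.45 and 1.90, also above every primed library but short of the threshold (adjusted p = 0.118 and 0.328), which LCDM (EPS) passed in a shared fit of all 8 groups (0.0382). It had 0 counts in all 9 libraries of E-NHSM, NHSM-v and t2iLGöY, although 2 primed libraries also had 0, and in 4i/L/b it was at 0.948, 1.67 and 0.942 CPM. HOXB1 was called lower in t2iLGöY than in primed cells (adjusted p = 0.0419), 2.71-fold below the primed mean if set at 3 counts per library. The call was lost without any 1 of the t2iLGöY libraries (adjusted p = 0.101, 0.0937 and 0.0922). It was also lost without Primed K3 (0.0512) and without a filter on low counts (0.0597). Without Primed J2, K1 or K2, HOXB1 had too few counts to be tested. In NHSM-v, with the same 0 counts, it was not tested either, and in E-NHSM it was not called (adjusted p = 0.0751). HOXD1 was over the floor in 5 libraries only, with 0.856 CPM in Primed K2, 0.684 in E-NHSM replicate 2, 0.874 in NHSM-v replicate 2 and 2 TL2i libraries at 0.306 and 0.898, and was not tested.

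HOXB2 acts in the hindbrain and its facial motor neurons. Primed libraries ranged from 2.11 to 3.66 CPM, with a median of 2.35. LCDM (EPS) had 80.2, 85.1 and 75.1 CPM and TL2i 82.7, 68.1 and 81.7, which did not pass the test of their difference (log2 difference -0.02 ± 0.18, adjusted p = 0.934). t2iLGöY followed with 39.3, 35.1 and 36.5 CPM, 4i/L/b with 21.5, 27.1 and 26.95, NHSM-v with 20.8, 18.8 and 19.3 and TL-CDK8i with 15.6, 15.4 and 8.16. All 18 of these libraries lay above every primed library. The log2 fold changes against primed cells were 4.85 ± 0.19 in LCDM (EPS), 4.80 ± 0.19 in TL2i, 3.73 ± 0.26 in t2iLGöY, 3.24 ± 0.27 in 4i/L/b, 2.97 ± 0.31 in NHSM-v and 2.33 ± 0.37 in TL-CDK8i, with adjusted p from 7.76e-11 to 0.00014. In the order of means, TL2i was above t2iLGöY (log2 difference 1.12 ± 0.19, adjusted p = 1.7e-05) and NHSM-v above TL-CDK8i (log2 difference 0.67 ± 0.21, adjusted p = 0.00762), while t2iLGöY and 4i/L/b, and 4i/L/b and NHSM-v, did not pass the test of their difference (adjusted p = 0.0956 and 0.293).

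E-NHSM went the other way for HOXB2, with 5, 0 and 0 counts (0.241, 0 and 0 CPM), below every primed library (log2 fold change -4.86 ± 1.36, adjusted p = 0.0124). The adjusted p rose past the threshold without E-NHSM replicate 2 (0.0556) or 3 (0.0585) and with the primed columns of letter J only (0.0535).

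HOXA2, which patterns the hindbrain and the second pharyngeal arch, was nearly silent in primed cells, with 0 counts in 4 libraries, 1 in Primed J3 and 9 in Primed K2. It stood at 38.2, 52.8 and 40.7 CPM in LCDM (EPS) and 46.5, 39.1 and 41.6 in NHSM-v, the highest levels, which did not pass the test of their difference (log2 difference 0.16 ± 0.20, adjusted p = 0.523). TL2i had 26.7, 20.2 and 27.8 CPM, below NHSM-v (log2 difference 0.95 ± 0.21, adjusted p = 0.000399). 4i/L/b had 14.5, 19.2 and 18.9, t2iLGöY 15.6, 16.7 and 13.1 and TL-CDK8i 6.38, 5.18 and 2.90 CPM, and TL-CDK8i was below t2iLGöY (log2 difference 1.50 ± 0.24, adjusted p = 6.28e-06). These 18 libraries were all above the primed ones, with log2 fold changes from 5.01 ± 1.15 in TL-CDK8i to 8.07 ± 0.59 in NHSM-v and adjusted p from 1.73e-08 to 0.0025. The size of these fold changes rests on the 10 counts found in all primed libraries together. E-NHSM libraries had 0 counts, and HOXA2 was not tested there.

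Paralog group 3 acts in the pharyngeal arches and the lower hindbrain. HOXB3 ranged from 0 to 3.71 CPM, with a median of 0.412, in primed libraries, with the highest value, from 34 counts, in Primed J1. TL2i had 33.6, 38.1 and 42.7 CPM (log2 fold change 5.26 ± 0.77, adjusted p = 6.77e-05), LCDM (EPS) 19.6, 21.2 and 16.9 (log2 fold change 4.25 ± 0.90, adjusted p = 0.0011), t2iLGöY 17.2, 18.6 and 17.1 (log2 fold change 4.11 ± 0.95, adjusted p = 0.00195) and 4i/L/b 13.6, 12.5 and 13.8 (log2 fold change 3.76 ± 0.97, adjusted p = 0.00474). TL2i was above LCDM (EPS) (log2 difference 1.01 ± 0.28, adjusted p = 0.00328). TL-CDK8i had 7.84, 6.94 and 3.99 and NHSM-v 5.997, 5.34 and 3.20 CPM, and both missed the threshold (adjusted p = 0.0585 and 0.0925). Without Primed J1 both passed it (0.00981 and 0.0158), as they did with the primed columns of letter K only (0.00208 and 0.0033) and with all 8 groups in a shared fit (0.000233 and 0.000801). By DESeq2, TL-CDK8i passed it (0.0332). E-NHSM had 0.289, 0.570 and 0 CPM.

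HOXA3, a gene of thymus and parathyroid development, had 0 counts in 4 primed libraries and 8 and 4 in Primed K2 and K3. It was highest in t2iLGöY, at 11.4, 16.5 and 8.03 CPM (log2 fold change 5.96 ± 0.97, adjusted p = 9.83e-05), and TL2i, at 12.5, 11.98 and 10.7 (log2 fold change 5.92 ± 0.87, adjusted p = 7.11e-05). NHSM-v had 7.79, 4.37 and 2.95, TL-CDK8i 3.02, 8.50 and 3.08, 4i/L/b 5.21, 4.78 and 4.34 and LCDM (EPS) 3.15, 2.00 and 2.86 CPM, with log2 fold changes of 4.89 ± 1.16 in NHSM-v, 4.80 ± 1.13 in TL-CDK8i, 4.72 ± 1.10 in 4i/L/b and 3.87 ± 1.21 in LCDM (EPS) and adjusted p from 0.00201 to 0.014. Every library of the 6 protocols was above every primed library. The call in LCDM (EPS) was lost without LCDM (EPS) replicate 1 (adjusted p = 0.056). HOXD3 had 0 counts in all primed libraries and 1.10, 1.08 and 0.858 CPM in t2iLGöY (adjusted p = 0.0112). Its t2iLGöY mean was 3.45-fold above the floor of 3 counts per primed library. TL2i had 1.03, 0.489 and 1.20 CPM, where HOXD3 was not tested against primed cells. In the other protocols it had at most 1 count in a library.

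**Figure D3:**
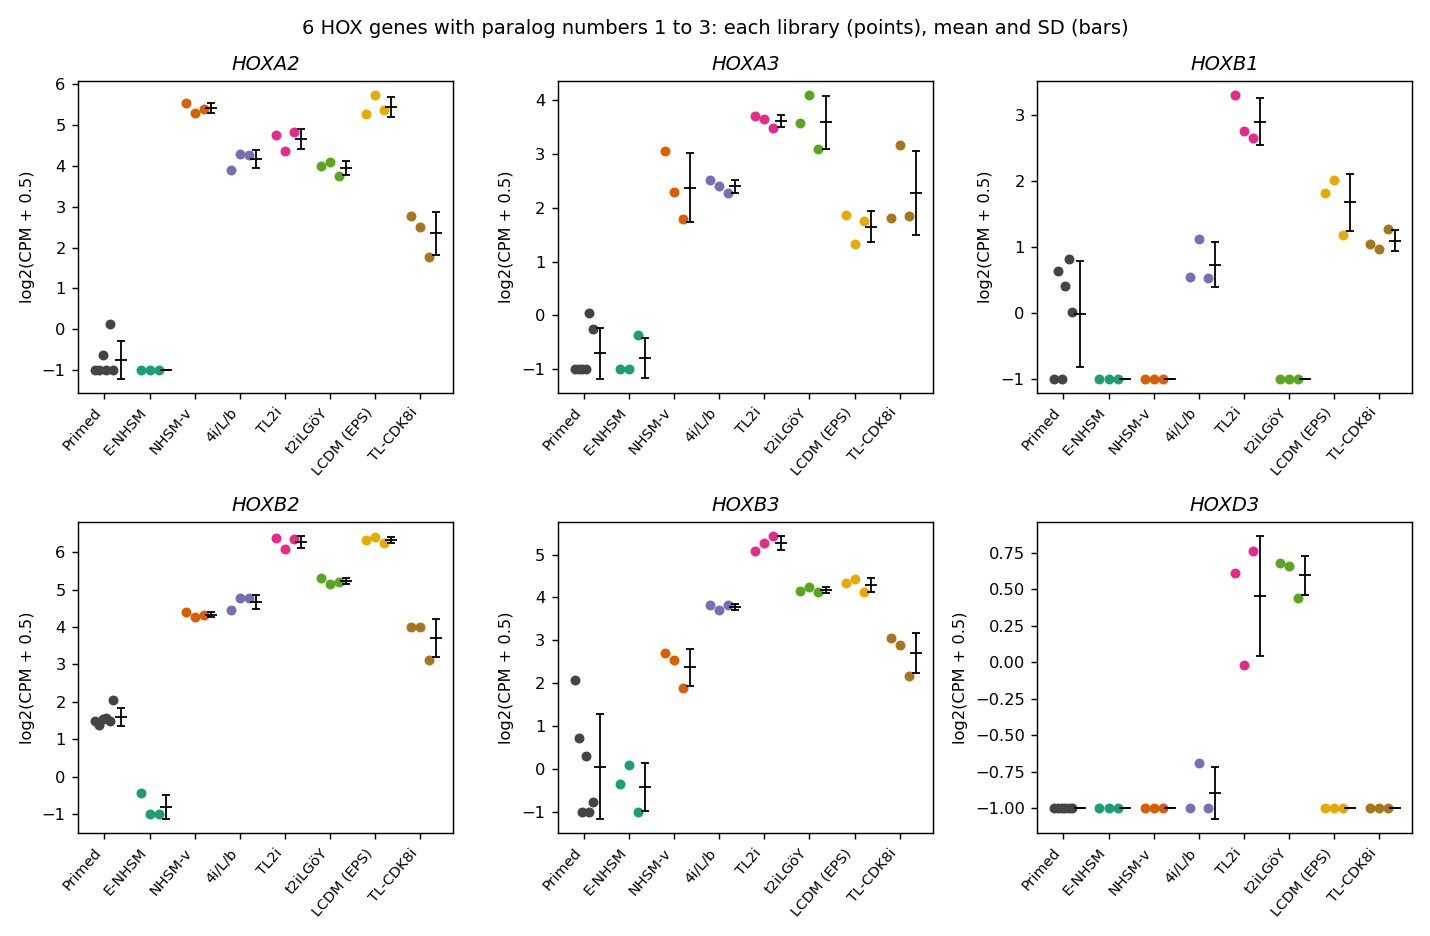
Levels of HOXA2, HOXA3, HOXB1, HOXB2, HOXB3 and HOXD3 as log2(CPM + 0.5) in each library (points), with the mean and SD of each group (bars). For HOXA2, HOXA3 and HOXB2 all points of the 6 protocols other than E-NHSM lie above the primed points.

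In the RefSeq annotation of the T2T-MMU8v2.0 assembly, the span of HOXA3 overlaps those of HOXA4, HOXA5, HOXA6 and HOXA7, and that of HOXB3 overlaps HOXB4. HOXA5 overlaps HOXA6, and HOXD10 overlaps HOXD11. The build and annotation used for the counts, and how reads in such overlaps or on the opposite strand were counted, were not given in the sources used here, so the division of reads between these neighbours, and between HOX genes and antisense RNAs of the clusters, is uncertain.

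Among the higher paralog numbers, HOXC6, HOXB8, HOXB9, HOXA11, HOXD10 and HOXD11 were over the floor in every primed library, as was HOXB2. HOXC6, a gene of the thoracic region, ranged from 2.24 to 11.1 CPM, with a median of 4.44, in primed libraries. NHSM-v had 7.89, 17.6 and 13.6 CPM (log2 fold change 1.28 ± 0.45, adjusted p = 0.0242), and its lowest library overlapped the primed ones. The call was lost without NHSM-v replicate 2 (adjusted p = 0.144) or 3 (0.0717) and with the primed columns of letter J only (0.114). TL2i had 0.462, 1.71 and 0.150 CPM (log2 fold change -2.92 ± 0.81, adjusted p = 0.00829) and LCDM (EPS) 0.536, 2.05 and 1.37 (log2 fold change -2.17 ± 0.68, adjusted p = 0.0144), all below the primed range. In t2iLGöY it was at 8.74, 12.4 and 8.73, in TL-CDK8i at 4.14, 6.42 and 3.81 and in 4i/L/b at 2.94, 2.15 and 2.07 CPM, none of which passed the test (adjusted p = 0.217, 0.766 and 0.0742). Without Primed K2 the 4i/L/b libraries passed it, as lower (0.0412), as they did with the primed columns of letter J only (0.02). With the columns of letter K only, t2iLGöY passed it, as higher (0.0288), and the LCDM (EPS) call was lost (0.0862).

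HOXB8 and HOXB9 are trunk genes of cluster B. HOXB8 ranged from 0.873 to 5.48 CPM, with a median of 1.70, in primed libraries, and had 0.0948, 0.597 and 0.565 CPM in 4i/L/b (log2 fold change -2.48 ± 0.98, adjusted p = 0.0451), 0, 0 and 0.286 in LCDM (EPS) (log2 fold change -4.58 ± 1.40, adjusted p = 0.0122) and 0, 3 and 2 counts in TL2i, at or under the floor (adjusted p = 0.0081). None of these 9 libraries reached the primed range. In 4i/L/b the call was lost without any 1 of the 4i/L/b libraries (adjusted p = 0.168, 0.0898 and 0.098), without Primed J2, J3 or K3 (0.0529, 0.0629 and 0.0619), with RLE normalization (0.0513), without a filter (0.0569) and with all 8 groups in a shared fit (0.0802). NHSM-v libraries, at 2.63, 3.50 and 3.20 CPM, lay within the primed range, and t2iLGöY and TL-CDK8i, at 0, 1.08 and 0.858 and 0.560, 0.932 and 0.363, were not called.

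HOXB9 ranged from 2.37 to 10.5 CPM, with a median of 3.22, in primed libraries. It had 0.308, 1.59 and 0.374 CPM in TL2i (log2 fold change -2.71 ± 0.81, adjusted p = 0.0128) and 0.948, 1.07 and 1.41 in 4i/L/b (log2 fold change -2.07 ± 0.68, adjusted p = 0.0187), all below the primed range. LCDM (EPS), at 0.833, 1.90 and 2.23 CPM, was also below it but missed the threshold (adjusted p = 0.0595), which it passed by DESeq2 (0.0223) and in a shared fit of all 8 groups (0.0383). Without replicate 1 or 2 of 4i/L/b (adjusted p = 0.0743 and 0.064), and without replicate 1 or 3 of TL2i (0.0582 and 0.0607), those calls were lost. NHSM-v had 5.89, 9.61 and 8.77, t2iLGöY 3.16, 3.97 and 4.21 and TL-CDK8i 3.81, 3.32 and 3.81 CPM, all within the primed range, and NHSM-v passed the test, as higher, without Primed J3 (0.0213) and with the primed columns of letter K only (0.0461).

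HOXA11, HOXD10 and HOXD11 act in the limbs and the lower trunk. HOXD10 ranged from 1.45 to 8.08 CPM, with a median of 5.37, in primed libraries, HOXA11 from 0.984 to 8.72 CPM, with a median of 3.69, and HOXD11 from 0.681 to 1.97 CPM, with a median of 1.66. In TL2i, HOXA11 had 0.462, 0.795 and 0.749 CPM (log2 fold change -2.67 ± 0.84, adjusted p = 0.017) and HOXD10 0.257, 1.41 and 0.674 (log2 fold change -2.80 ± 0.78, adjusted p = 0.0082). HOXD11 had 0.257, 0.0611 and 0.225 CPM there (log2 fold change -3.14 ± 1.00, adjusted p = 0.0173). All of these lay below the primed ranges. The TL2i call of HOXA11 was lost without TL2i replicate 1 or 3 (adjusted p = 0.0686 and 0.053) and with the primed columns of letter K only (0.0902), and that of HOXD11 without any 1 TL2i library (0.0599, 0.102 and 0.0674). In LCDM (EPS), HOXA11 had 0.298, 0 and 0.229 CPM (log2 fold change -4.56 ± 1.17, adjusted p = 0.00419) and HOXD10 0.238, 0 and 0.229 (log2 fold change -5.08 ± 1.02, adjusted p = 0.000738). HOXD11 had 0 counts in all LCDM (EPS) libraries (adjusted p = 0.00116), 9.29-fold below the primed mean if set at 3 counts per library. NHSM-v, 4i/L/b, t2iLGöY and TL-CDK8i had no call for these genes. HOXD10 in 4i/L/b passed the test, as lower, without Primed K3 (adjusted p = 0.0417) and with the primed columns of letter J only (0.0132). HOXD10 in t2iLGöY passed it, as lower, with letter J only (0.0372), and HOXD11 in t2iLGöY, also as lower, without t2iLGöY replicate 3 (0.0107).

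HOXB5 ranged from 0 to 2.71 CPM, with a median of 0.816, in primed libraries. It had 0 counts in all LCDM (EPS) libraries (adjusted p = 0.0305), 5.93-fold below the primed mean if set at 3 counts per library. The groups overlapped, since 2 primed libraries also had 0 counts and another had 1. Without LCDM (EPS) replicate 1, the calls of HOXB5, HOXB8 and HOXC6 in LCDM (EPS) were lost (adjusted p = 0.0797, 0.053 and 0.0632), which left 3 of the 6. Without replicate 2 those of HOXB5 (0.0817) and HOXB8 (0.052) were lost, and without replicate 3 that of HOXB5 (0.0802).

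**Figure D4:**
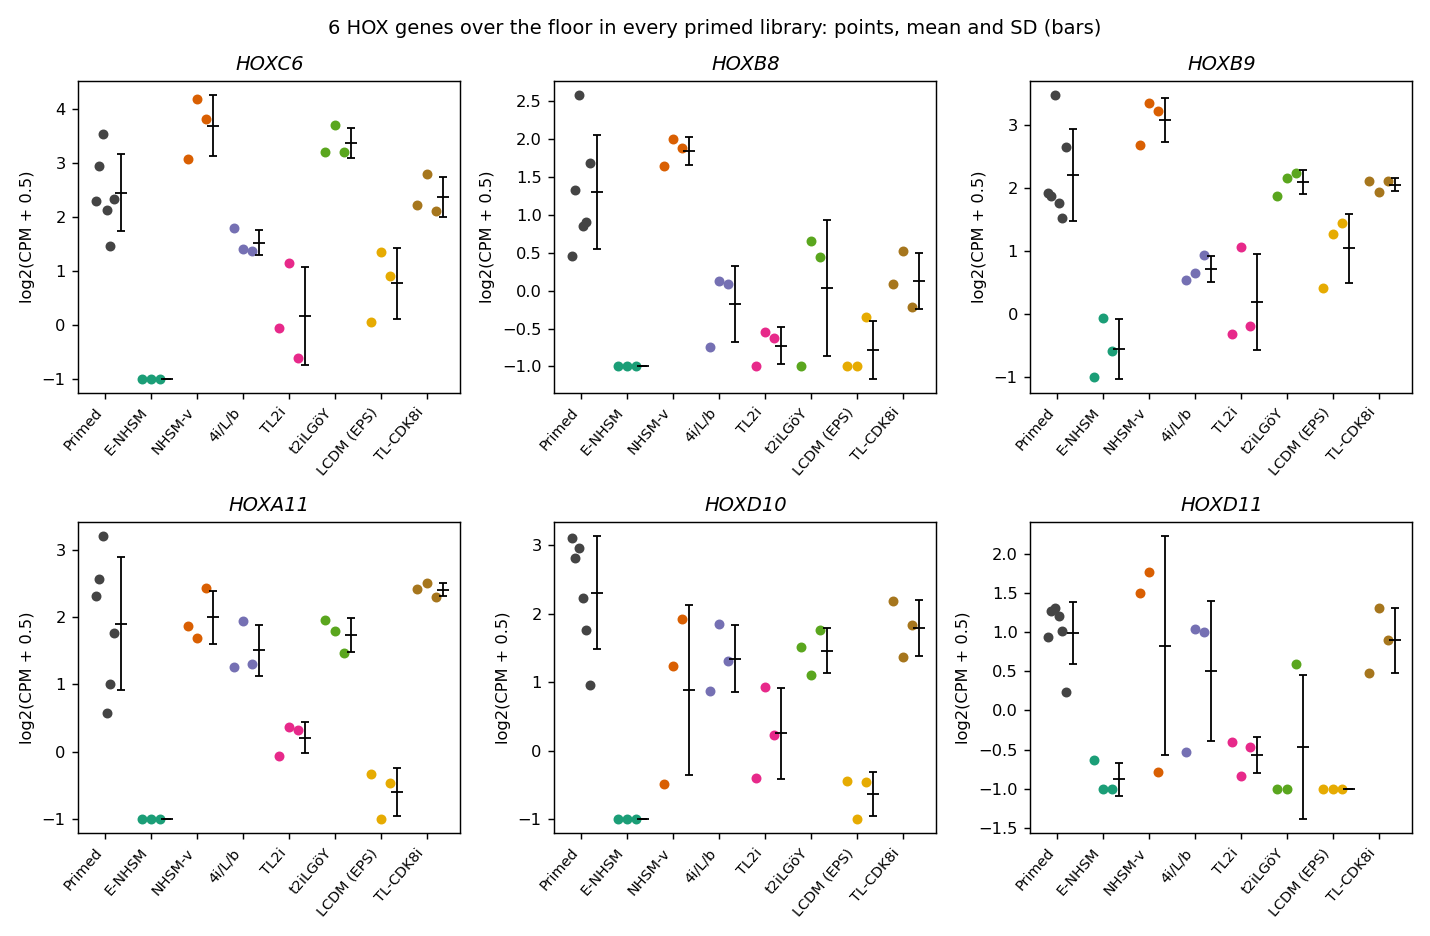
Levels of HOXC6, HOXB8, HOXB9, HOXA11, HOXD10 and HOXD11 as log2(CPM + 0.5) in each library (points), with the mean and SD of each group (bars). The points of TL2i, LCDM (EPS) and E-NHSM lie below all primed points in each panel, and the highest HOXC6 library is of NHSM-v.

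E-NHSM cells had less HOX RNA than primed cells across the clusters. Their summed level over all members was 2.97 ± 1.71 CPM against 41.6 ± 12.4 in primed cells. HOXC6, HOXD10, HOXA11, HOXC4 and HOXB8 had 0 counts in all 3 libraries, where 3 counts would be 0.145 to 0.171 CPM. If set at that floor, they would be 34.7-, 31.7-, 24.98-, 9.76- and 14.4-fold below the primed means (adjusted p = 3.44e-05, 6.98e-05, 0.000452, 0.0105 and 0.00307). These folds are not firm lower limits, since HOXC10 had 0, 18 and 0 counts in the same libraries. For HOXC4, Primed J1 also held only 1 count (0.109 CPM), less than 3 counts are worth in E-NHSM. HOXB9 had 0, 0.456 and 0.165 CPM (log2 fold change -4.54 ± 1.06, adjusted p = 0.00362). HOXD11 had 3, 0 and 0 counts (adjusted p = 0.0311), a call lost without E-NHSM replicate 2 (0.124) or 3 (0.134). The 8 lower calls became 16 when all 8 groups shared a fit and 5 with the primed columns of letter J only. HOXA9 became a lower call without Primed J1 (adjusted p = 0.0399) or J3 (0.0264), HOXB1 without Primed J3 (0.0431) and HOXB5 without Primed K2 (0.0469). By DESeq2, HOXA9, HOXB1 and HOXB5 were called lower (adjusted p = 0.00652, 0.0247 and 0.00745). The fibroblast marker sum was also lower in these libraries, as given above, and its part in these differences was not tested.

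The remaining members were low or uneven. HOXA10, a gene of the lower trunk and uterus, had 1.69, 2.89 and 1.95 CPM in t2iLGöY (log2 fold change 4.10 ± 1.37, adjusted p = 0.0199). Primed libraries had at most 0.511 CPM, with 0 counts in 4 of them. The call was lost without t2iLGöY replicate 2 (adjusted p = 0.0692) and with the primed columns of letter K only (0.056). TL-CDK8i libraries, at 1.12, 1.35 and 0.997 CPM, also lay above every primed library, but HOXA10 was not tested there. Replicate 2 of 4i/L/b reached 2.03 CPM, while the other 4i/L/b libraries had 0.0948 and 0.377. Among the protocols HOXA10 was not called in edgeR's F test (adjusted p = 0.136), and 0 of 21 pairs of protocols differed. HOXC10 reached 6.31 CPM in NHSM-v replicate 1 but 1.07 and 1.64 in the other NHSM-v libraries, and HOXC10 had 0, 18 and 0 counts in E-NHSM. HOXD8 ranged from 0 to 2.38 CPM, with a median of 0.838, in primed libraries, with 1.79, 1.85 and 0.902 CPM in NHSM-v and 0.238, 0.449 and 1.54 in LCDM (EPS). HOXD13, a gene of the digits, had 2.84, 1.17 and 1.39 CPM in NHSM-v and 1.84, 1.01 and 0 in t2iLGöY. None of HOXC10, HOXD8 and HOXD13 passed the test against primed cells in any protocol.

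HOXC4 passed the test only in E-NHSM, and in TL2i, as lower, with the primed columns of letter K only (adjusted p = 0.04). HOXA5, HOXA7, HOXA9, HOXC5, HOXC8 and HOXC9 were tested in at least 2 protocols and passed in none, with no library above 8.45 CPM. HOXC8 nevertheless ranged from 4.34 to 8.45 CPM in NHSM-v and 5.21 to 7.25 in t2iLGöY. All of these lay above the primed maximum of 3.85 (adjusted p = 0.115 and 0.154). HOXA5 in NHSM-v, at 2.13 to 2.84 CPM, also lay above its primed maximum of 1.96 (adjusted p = 0.274). HOXA4, HOXA6, HOXA13, HOXB4, HOXB6, HOXB7, HOXB13, HOXC11, HOXC12, HOXC13, HOXD1, HOXD9 and HOXD12 had too few counts for a test against primed cells, and their highest library was at 2.33 CPM.

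Whether a member's level depended on the protocol was asked without the primed libraries. Of the 27 members with enough counts, 24 differed among the 7 protocols in edgeR's F test, where 90.9% of all genes tested did. The smallest adjusted p were those of HOXB2 (1.19e-17), HOXA2 (4.13e-16) and HOXB3 (4.14e-13). HOXA7, HOXA10 and HOXD8 were not called. TL2i and TL-CDK8i, which share LIF and tamoxifen, differed for 11 of the 27 members (all genes 53.0%). HOXB2, HOXB3 and HOXA2 were higher in TL2i, with log2 differences of 2.46, 2.50 and 2.27, as were HOXA3, HOXB1 and HOXD3, while HOXA11, HOXB9, HOXC6, HOXC8 and HOXC10 were higher in TL-CDK8i. TL2i and LCDM (EPS) differed for 6 (50.0%), with HOXA3, HOXB3, HOXB4 and HOXD3 among those higher in TL2i, and HOXA2 higher in LCDM (EPS). E-NHSM and NHSM-v differed for 23 (69.0%), all higher in NHSM-v.

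The other pairs of protocols were counted the same way over the 27 members, each count beside the share of all genes tested that differed. Members of E-NHSM that differed numbered 17 from 4i/L/b (0 higher and 17 lower, all genes 65.0%), 15 from TL2i (0 higher and 15 lower, all genes 60.6%), 19 from t2iLGöY (0 higher and 19 lower, all genes 67.3%), 13 from LCDM (EPS) (0 higher and 13 lower, all genes 66.0%) and 19 from TL-CDK8i (0 higher and 19 lower, all genes 57.8%). Members of NHSM-v that differed numbered 6 from 4i/L/b (4 higher and 2 lower, all genes 39.9%), 17 from TL2i (12 higher and 5 lower, all genes 51.9%), 6 from t2iLGöY (3 higher and 3 lower, all genes 49.6%), 15 from LCDM (EPS) (12 higher and 3 lower, all genes 54.8%) and 6 from TL-CDK8i (4 higher and 2 lower, all genes 60.4%). Members of 4i/L/b that differed numbered 4 from TL2i (1 higher and 3 lower, all genes 26.8%), 4 from t2iLGöY (2 higher and 2 lower, all genes 44.1%), 8 from LCDM (EPS) (6 higher and 2 lower, all genes 48.0%) and 5 from TL-CDK8i (3 higher and 2 lower, all genes 52.6%). Members of TL2i that differed numbered 12 from t2iLGöY (5 higher and 7 lower, all genes 50.6%). Members of t2iLGöY that differed numbered 14 from LCDM (EPS) (10 higher and 4 lower, all genes 35.8%) and 7 from TL-CDK8i (5 higher and 2 lower, all genes 62.9%). Members of LCDM (EPS) that differed numbered 13 from TL-CDK8i (3 higher and 10 lower, all genes 63.7%).

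Within the primed group, the columns carry the letters J and K, with 3 libraries each. Of 14 members tested, 0 differed between them by edgeR (2 at an unadjusted p under 0.05) and 0 by DESeq2, where 3.73% of all genes tested did by edgeR. The 2 were HOXA11 (means of 6.19 CPM in J and 1.80 in K, unadjusted p = 0.0353) and HOXD10 (7.31 and 2.84, 0.0447). Over all genes, pairs of libraries of 1 letter differed by a chi-square per gene of 9.14 to 16.9, and pairs across letters by 18.9 to 29.8. The 0 calls therefore do not show the primed group to be uniform. Sample titles also divide the primed libraries into sets, which were not matched to the letters.

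Genes for proteins that bind DNA with HOX factors are given here with the share of all genes called, higher and lower, in the same comparison. Of 9 cofactor genes of the TALE class, all tested, 4 were higher and 2 lower in NHSM-v (all genes 28.0% and 30.6%), 5 and 2 in t2iLGöY (27.1% and 27.2%), 4 and 1 in 4i/L/b (26.6% and 29.0%), 5 and 1 in LCDM (EPS) (28.2% and 28.9%), 4 and 2 in TL2i (25.6% and 25.2%), 4 and 3 in TL-CDK8i (22.3% and 23.8%) and 0 and 4 in E-NHSM (11.1% and 15.1%). The list's median log2 fold change was 1.86 in NHSM-v (over all genes -0.02) and -0.32 in E-NHSM (over all genes 0.02). MEIS2 rose from 8.08 ± 4.53 CPM in primed cells to 516 ± 17.3 in LCDM (EPS) (log2 fold change 5.94 ± 0.29, adjusted p = 7.58e-10) and 189.7 ± 21.2 in TL2i (log2 fold change 4.48 ± 0.31, adjusted p = 4.56e-08). In E-NHSM MEIS2 fell to 1.07 ± 0.406 CPM (log2 fold change -2.99 ± 0.60, adjusted p = 0.00104). MEIS1, MEIS3 and PKNOX2 likewise were higher in the 6 other protocols and lower in E-NHSM, and MEIS1 reached 135 ± 7.85 CPM in LCDM (EPS) from 6.30 ± 4.70.

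**Figure D5:**
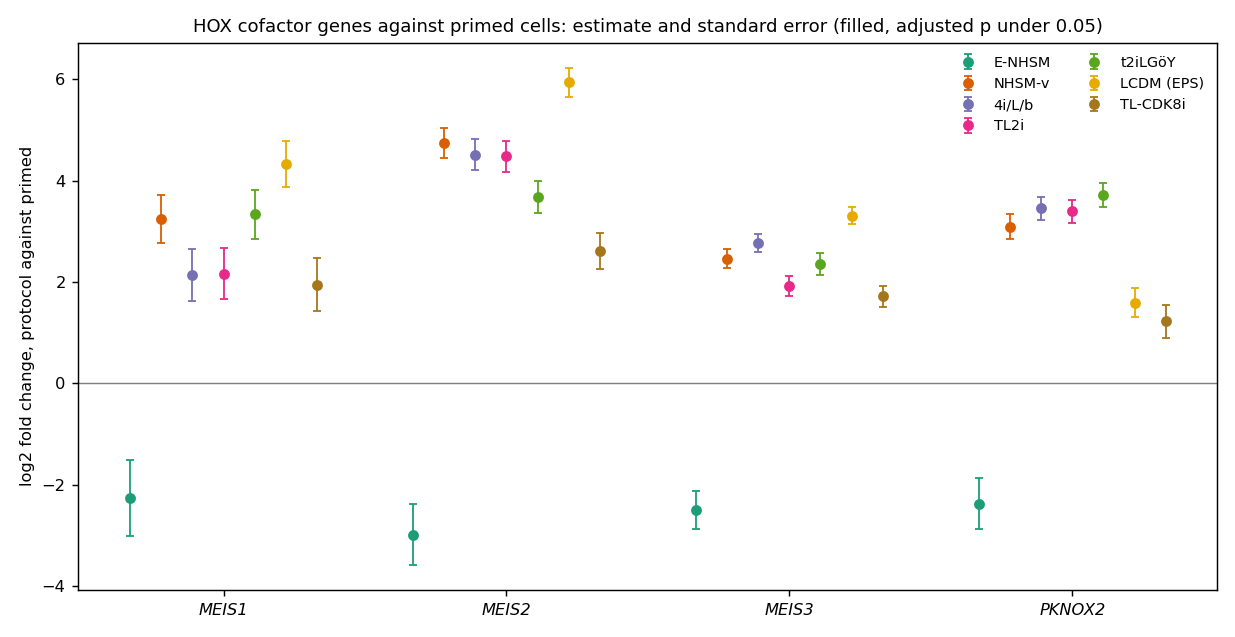
Log2 fold change against primed cells of 4 HOX cofactor genes in each protocol (points, with standard errors as bars, filled where the adjusted p was under 0.05). MEIS1, MEIS2, MEIS3 and PKNOX2 are above 0 in 6 protocols and below 0 in E-NHSM.

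Retinoic acid induces HOX genes of low paralog number. Of 18 genes for its synthesis, breakdown, binding and receptors, 16 were in the tables. Of these, 5 were higher and 5 lower among 13 tested in NHSM-v (all genes 28.0% and 30.6%), 6 and 7 of 13 in t2iLGöY (27.1% and 27.2%), 6 and 4 of 15 in 4i/L/b (26.6% and 29.0%), 5 and 5 of 13 in LCDM (EPS) (28.2% and 28.9%), 7 and 4 of 15 in TL2i (25.6% and 25.2%), 9 and 0 of 15 in TL-CDK8i (22.3% and 23.8%) and 0 and 7 of 13 in E-NHSM (11.1% and 15.1%). The list had median log2 fold changes from -0.79 in E-NHSM to 0.87 in TL2i, where the median over all genes lay between -0.02 and 0.07 in every protocol. RARB, a receptor gene and direct retinoic acid target, was higher in TL-CDK8i (log2 fold change 1.72 ± 0.29, adjusted p = 0.000241) and lower in the 6 other protocols, from log2 fold change -1.17 ± 0.45 in t2iLGöY to -4.44 ± 0.55 in E-NHSM. CYP26A1, which breaks retinoic acid down, was at 71.2 ± 22.0 CPM in primed and 1.42 ± 0.743 in E-NHSM cells (log2 fold change -5.70 ± 0.37, adjusted p = 3.11e-09), higher in TL-CDK8i (log2 fold change 0.71 ± 0.22, adjusted p = 0.0183) and lower in TL2i and t2iLGöY. CRABP1, a retinoic acid binding protein gene, rose in 6 protocols, to 1271 ± 249 CPM in TL2i from 11.1 ± 6.77, and fell in E-NHSM (log2 fold change -3.03 ± 0.52, adjusted p = 0.000261). ALDH1A1, a retinoic acid synthesis enzyme, reached 18.6 ± 3.88 CPM in TL2i from 0.123 ± 0.302 (log2 fold change 7.14 ± 0.87, adjusted p = 1.41e-05).

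CDX factors and axis elongation signals switch on HOX genes of the trunk. CDX2 had 0 counts in all primed libraries and 5.01 ± 1.60 CPM in TL2i (adjusted p = 0.000278), and no library of another protocol held more than 5 counts. CDX1 had 1.19 ± 0.197 CPM in TL2i against 0.492 ± 1.21 in primed cells, which did not pass the test (log2 fold change 1.25 ± 1.60, adjusted p = 0.539). WNT3A had at most 1 count in a primed or E-NHSM library and was called higher in the 6 other protocols, with 106 ± 10.9 CPM in t2iLGöY and 5.05 ± 1.95 in TL-CDK8i. WNT8A was lower in all 7 protocols, from 11.9 ± 6.49 CPM in primed cells to 2.76 ± 1.78 in E-NHSM and 5.61 ± 1.18 in TL-CDK8i. NKX1-2, a gene of axial progenitors, rose in TL-CDK8i (log2 fold change 2.82 ± 0.25, adjusted p = 5.01e-07) and was lower in the other protocols but E-NHSM. Of the 11 listed genes found, 2 were higher and 3 lower among 7 tested in NHSM-v (all genes 28.0% and 30.6%), 2 and 4 of 7 in t2iLGöY (27.1% and 27.2%), 2 and 4 of 7 in 4i/L/b (26.6% and 29.0%), 2 and 4 of 7 in LCDM (EPS) (28.2% and 28.9%), 3 and 4 of 9 in TL2i (25.6% and 25.2%), 2 and 1 of 8 in TL-CDK8i (22.3% and 23.8%) and 0 and 2 of 7 in E-NHSM (11.1% and 15.1%). The list's median log2 fold change was -2.62 to 0.34 over the protocols.

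Of 7 regulators of hindbrain segments, 2 were higher and 2 lower among 4 tested in NHSM-v (all genes 28.0% and 30.6%), 3 and 1 of 5 in t2iLGöY (27.1% and 27.2%), 2 and 2 of 4 in 4i/L/b (26.6% and 29.0%), 4 and 1 of 5 in LCDM (EPS) (28.2% and 28.9%), 3 and 1 of 5 in TL2i (25.6% and 25.2%), 3 and 1 of 5 in TL-CDK8i (22.3% and 23.8%) and 0 and 2 of 4 in E-NHSM (11.1% and 15.1%). The list's median log2 fold change was -2.73 to 2.56 over the protocols. EGR2, a hindbrain segment gene that also responds to growth factor signals, fell in all 7 protocols from 182 ± 16.1 CPM, to 0.135 ± 0.141 in LCDM (EPS). EPHA4 rose in 6 protocols (log2 fold change 3.88 ± 0.20, adjusted p = 1.27e-09, in LCDM (EPS)).

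Transcription factors of the forebrain and midbrain mark regions where HOX genes are normally off. Of 16 such genes, 4 were higher and 2 lower among 10 tested in NHSM-v (all genes 28.0% and 30.6%), 5 and 1 of 10 in t2iLGöY (27.1% and 27.2%), 1 and 3 of 6 in 4i/L/b (26.6% and 29.0%), 3 and 3 of 11 in LCDM (EPS) (28.2% and 28.9%), 2 and 3 of 7 in TL2i (25.6% and 25.2%), 2 and 3 of 7 in TL-CDK8i (22.3% and 23.8%) and 0 and 2 of 5 in E-NHSM (11.1% and 15.1%). The list's median log2 fold change was -1.75 to 2.29 over the protocols. OTX2 was at 119 ± 19.7 CPM in primed cells, rose in t2iLGöY to 322 ± 40.4 (log2 fold change 1.32 ± 0.13, adjusted p = 4.76e-07) and fell in LCDM (EPS) (log2 fold change -2.87 ± 0.17, adjusted p = 6.68e-09), TL2i (log2 fold change -2.62 ± 0.16, adjusted p = 1.15e-08), 4i/L/b (log2 fold change -2.18 ± 0.15, adjusted p = 3.04e-08) and TL-CDK8i (log2 fold change -1.22 ± 0.19, adjusted p = 9.74e-05). It was not called in NHSM-v and E-NHSM (adjusted p = 0.106 and 0.465). OTX1 was at 125 ± 20.9 CPM in t2iLGöY and 0.290 ± 0.550 in primed cells. PAX2 and EN2, of the midbrain and hindbrain border, had 0 counts in primed libraries. PAX2 had 15.6 ± 0.877 CPM in LCDM (EPS) and EN2 6.40 ± 2.17 in NHSM-v.

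Of 6 ParaHox and HOX-linked homeobox genes, 1 to 3 had enough counts. Of these, 1 were higher and 0 lower among 2 tested in NHSM-v (all genes 28.0% and 30.6%), 2 and 0 of 2 in t2iLGöY (27.1% and 27.2%), 1 and 0 of 2 in 4i/L/b (26.6% and 29.0%), 2 and 1 of 3 in LCDM (EPS) (28.2% and 28.9%), 0 and 0 of 1 in TL2i (25.6% and 25.2%), 1 and 0 of 2 in TL-CDK8i (22.3% and 23.8%) and 0 and 0 of 1 in E-NHSM (11.1% and 15.1%). GSX2 was higher in NHSM-v, 4i/L/b, t2iLGöY, LCDM (EPS) and TL-CDK8i, with at most 4.11 ± 1.20 CPM. GSX1 had 21.9 ± 1.09 CPM in LCDM (EPS). EVX2, which lies beside the HOXD cluster, was higher in t2iLGöY (log2 fold change 3.15 ± 1.17, adjusted p = 0.0327). It was lower in LCDM (EPS), where it had 0 counts. EVX2 was also at or under the floor in E-NHSM, NHSM-v and 4i/L/b, without a lower call. In the lowest primed library the 6 genes summed to 0 CPM. Of the 18 Polycomb and trithorax genes, all tested, 6 were higher and 4 lower in NHSM-v (all genes 28.0% and 30.6%), 8 and 4 in t2iLGöY (27.1% and 27.2%), 6 and 7 in 4i/L/b (26.6% and 29.0%), 13 and 3 in LCDM (EPS) (28.2% and 28.9%), 10 and 4 in TL2i (25.6% and 25.2%), 3 and 7 in TL-CDK8i (22.3% and 23.8%) and 1 and 3 in E-NHSM (11.1% and 15.1%). The list's median log2 fold change was -0.20 to 0.53 over the protocols. JARID2, a partner of Polycomb repressive complex 2, fell from 679 ± 51.2 CPM in 6 protocols, to 70.9 ± 0.666 in NHSM-v (log2 fold change -3.23 ± 0.09, adjusted p = 5.46e-13) and 393 ± 67.5 in TL-CDK8i (log2 fold change -0.81 ± 0.10, adjusted p = 1.56e-05). In E-NHSM it was not called (adjusted p = 0.0605). BMI1 rose in the 5 protocols other than E-NHSM and TL-CDK8i (log2 fold change 2.55 ± 0.28, adjusted p = 2.57e-06, in LCDM (EPS)) and fell in E-NHSM (log2 fold change -1.41 ± 0.38, adjusted p = 0.0104). CBX8 was higher in the same 5 protocols, and CBX7 lower in them.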

How the data were processed

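The authors prepared directional mRNA libraries, sequenced them as single reads, and the deposited values are raw counts for each symbol, with 1 column per library. The submitters' processing notes name bcl2fastq, cutadapt, HISAT2 and HTSeq. Their versions, the genome build, the annotation and the strand setting of the counting are not given in the sources used here. All 27 columns were used, which left 0 unassigned. Primed columns show only their group and the letter J or K, which were not matched to single labelled samples.

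R 4.3.3 with edgeR 4.0.16 (limma 3.58.1) computed TMM normalization, filterByExpr filtering and the quasi-likelihood test, for each protocol against primed cells on their own 9 libraries and for the 7 protocols among each other on 21. P-values were adjusted by Benjamini-Hochberg over all genes tested, with a threshold of 0.05, and a standard error is the size of the log2 fold change over the square root of F. CPM is the count over the library total, not corrected for gene length. A group was at the floor when every library held 3 counts or fewer. For a group with 0 counts, a fold was taken between the other group's mean and 3 counts per library. Such folds carry no error and are not firm limits, since a count of 0 can come from a level above 3 counts. Low counts carry counting error and differed between replicates, which the floor does not fully cover. The procedure was tested on simulated data. Alternatives were DESeq2 1.42.0, other normalizations, other filters, a fit of all 8 groups, primed columns of letter J or K only, a replicate block and leaving out each library.

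The members and lists were chosen with earlier results of these data known. Some members and list genes are not reported here, although counts and sums include them. Values per library were given for members called in 4 or more protocols, over the floor in primed cells, or highest in a cluster and protocol, and for HOXB1 and HOXB5, chosen after their values were seen. At most 4 called genes of each other list, those of largest fold change, were named, with MEIS1, MEIS2, CDX1, CDX2, RARB, CYP26A1 and OTX2.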

Additional observations from a re-analysis of the deposited data

Results flagged for a closer look

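In 7 of the 30 HOX genes examined in the primed group, 1 library stood apart from the other 5 by Dixon's criterion. Chance meets it in about 1 in 20 groups of normally distributed values, a rate that does not hold for counts that are mostly 0. HOXA2, HOXA10 and HOXD12 had 0 counts in 4 primed libraries and HOXD1 in 5, so the 7 cannot be set against that rate. These were HOXA2 in Primed K2 (0.593 CPM), HOXA7 in Primed J2 (2.75 CPM), HOXA10 in Primed K3 (0.511 CPM), HOXB2 in Primed K3 (3.66 CPM), HOXB3 in Primed J1 (3.71 CPM), HOXD1 in Primed K2 (0.856 CPM) and HOXD12 in Primed J3 (1.83 CPM).

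Members also differed among the 7 protocols in edgeR's F test. In cluster A the adjusted p was 4.13e-16 for HOXA2, 4.92e-08 for HOXA3, 0.0349 for HOXA5, 0.0196 for HOXA9 and 5.36e-07 for HOXA11. In cluster B it was 2.24e-08 for HOXB1, 1.19e-17 for HOXB2, 4.14e-13 for HOXB3, 0.0027 for HOXB4, 0.000288 for HOXB5, 0.0261 for HOXB6, 0.000459 for HOXB8 and 6.08e-06 for HOXB9. In cluster C it was 0.000378 for HOXC4, 0.00427 for HOXC5, 3.67e-09 for HOXC6, 3.31e-05 for HOXC8, 0.0436 for HOXC9 and 0.0332 for HOXC10. In cluster D it was 0.000231 for HOXD3, 0.000119 for HOXD10, 0.00319 for HOXD11 and 0.0037 for HOXD13.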

How the results depend on the processing

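No fold change that was called reversed its direction under any alternative run. Fold changes that were not called did so under several, for example HOXA11 in NHSM-v (log2 fold change -0.10, and 1.02 with primed columns of letter K only), HOXA11 in t2iLGöY (-0.59, and 0.51 with letter K only), HOXA9 in TL2i (0.16, and -0.54 with letter K only) and HOXA7 in NHSM-v (0.24, and -0.41 with letter J only). The number of members lower in E-NHSM was 16 with all 8 groups in a shared fit and 5 with primed columns of letter J only. With all 8 groups it was 1 in NHSM-v, 1 in 4i/L/b and 10 in LCDM (EPS). It was 1 in NHSM-v with at least 10 counts required, 1 in 4i/L/b with RLE normalization and 1 without a filter, and in t2iLGöY 0 without a filter and 0 with letter K only. TMM-scaled sums were 44.2 CPM for HOXB and 148 for all members in NHSM-v, 185 for all members in TL2i, and 56.5 for HOXB, 118 for all members and 39.9 for paralogs 4 to 13 in t2iLGöY. Leaving out 1 library at a time gave 6 to 10 lower and 0 higher members in E-NHSM, 3 to 5 higher and 0 lower in NHSM-v, 4 to 5 higher and 0 to 3 lower in 4i/L/b, 6 to 7 higher and 3 to 6 lower in TL2i, 5 to 6 higher and 0 to 1 lower in t2iLGöY, 3 to 5 higher and 3 to 6 lower in LCDM (EPS), and 4 to 5 higher and 0 lower in TL-CDK8i. Among the protocols it gave 20 to 25 members. The cause of these changes was not tested. No paired analysis was possible because the primed columns show only the group. Among the protocols the replicate numbers did not pair the libraries (63 correlations from -0.120 to 0.0604), and with a replicate block 22 members differed, all of them also called without it. Counts under 10 limit most members of high paralog number.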
